A study of Mus musculus with 48 samples.

Results

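The genes described here are 10 interferon-inducible GTPases of the mouse, namely Iigp1, Tgtp1, Tgtp2, Irgm1, Irgm2 and Igtp of the immunity-related GTPase (IRG) family and Gbp2, Gbp3, Gbp6 and Gbp7 of the guanylate-binding protein (GBP) family. They were found by their names in the annotation of the arrays, where 15 of 55681 probes, or 10 of 32053 named genes, carry one of these names. The genes were listed with earlier results of the same arrays known, among them their response to IL1B. Their differences between IL1B and PBS, and how these differ between ages or cell types, are therefore a description. Counts of listed genes past limma's threshold are printed for those values beside the share of all probes past it, and nothing is read from them. Comparisons of PBS cells and of genes outside the list are given with p-values. The lists of other genes were also chosen with earlier results of these data known. The PBS arrays entered the IL1B responses known at the choice. These p-values are therefore not independent support.

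Gene expression was measured on 48 Agilent mouse arrays, 6 for each of 8 groups. Male pups, of the Swiss strain per the labels and OF1 per the study's methods, received intraperitoneal PBS or the inflammatory cytokine IL1B at 10 ng/g from P1 to P5, and all groups were thus injected. Brains were taken at P5, 2 h after the last injection per the labels (the methods give a longer interval), or at P10. From the same animals, O4+ cells (oligodendrocyte progenitors at a late stage and oligodendrocytes not yet mature) were isolated first with magnetic beads, and CD11B+ microglia were then taken from what was left. The 8 groups are O4+ P5 PBS, O4+ P5 IL1B, O4+ P10 PBS, O4+ P10 IL1B, CD11B+ P5 PBS, CD11B+ P5 IL1B, CD11B+ P10 PBS and CD11B+ P10 IL1B. Both fractions are enriched and not pure, and the methods state that brains were pooled. The text label of the P10 samples repeats P5, while their titles and stage fields give P10, which was used.

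IRG and GBP proteins are large GTPases that cells make after exposure to interferons, above all interferon gamma. They assemble on the membranes that enclose intracellular bacteria and parasites and take part in breaking these open. Among the IRG proteins, Iigp1, Tgtp1 and Tgtp2 carry the GKS motif of the effectors, which load onto such membranes, while Irgm1, Irgm2 and Igtp carry the GMS motif of the regulators, which sit on the membranes of the cell itself and keep the effectors inactive there. The GBPs act beside them and also help to release bacterial products that inflammasomes detect. In the brain, glia express these genes when interferon signalling is active.

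A promoter that responds to interferon often holds a GAS, written here as TTCNNNGAA, or an ISRE, which IRF proteins bind and which is written as a pair of GAAA runs with any 2 bases between them (TTTC on the other strand). In the RefSeq promoter sequences of the GRCm38.p6 build, 8 of the 10 listed genes have an entry, and Iigp1 and Gbp6 have none. Within 250 bases before the annotated start, searched on both strands, an ISRE match was found for each of the 8 genes, in 8 of their 9 windows (88.9%), while 2.98% of all 32851 such windows hold one. A GAS match was found in 5 of the 9 windows (55.6%), against 7.02% of all windows, and both motifs in the same 5 of 9, against 0.332% of all windows. Matches to the kappaB motif were found in 0 of the 9 windows, against 3.90% of all. Other GTPase genes, from a list described below, have 9 windows. Of these, 4 (44.4%) held an ISRE match, 3 (33.3%) a GAS match, 3 (33.3%) both and 1 (11.1%) a kappaB match. A match describes these letters and is not evidence that a factor binds.

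The excerpts that follow show where the matches lie, each as 80 bases, 5′ to 3′ on the strand of the gene, with GAS and ISRE matches in capitals. The first pair belongs to the GKS effectors, Tgtp1 at chr11:48992279-48992358 (minus strand) and Tgtp2 at chr11:49064238-49064317 (minus strand), and shows the same layout of a GAS with an ISRE 2 bases after it.
Tgtp1: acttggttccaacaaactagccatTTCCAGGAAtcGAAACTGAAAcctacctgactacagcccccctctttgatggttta
Tgtp2: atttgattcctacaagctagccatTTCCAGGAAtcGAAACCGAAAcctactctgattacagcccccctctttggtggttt

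Of the GMS regulators, Irgm2 at chr11:58214878-58214957 (plus strand) and Igtp at chr11:58199476-58199555 (plus strand) have the same spacing of 2 bases, and they share a run of 29 identical bases. Irgm1 at chr11:48871421-48871500 (minus strand) has 2 overlapping ISRE matches and no GAS match.
Irgm2: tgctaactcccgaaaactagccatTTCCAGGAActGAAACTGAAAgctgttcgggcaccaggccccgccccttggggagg
Igtp: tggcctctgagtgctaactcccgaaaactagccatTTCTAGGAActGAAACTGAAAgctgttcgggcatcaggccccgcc
Irgm1: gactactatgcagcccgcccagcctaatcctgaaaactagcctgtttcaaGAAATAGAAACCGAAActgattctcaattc

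The GBP promoters carry the ISRE in the other orientation. They are shown for Gbp2 at chr3:142620569-142620648, Gbp3 at chr3:142559964-142560043 and Gbp7 at chr3:142530248-142530327, all on the plus strand. In Gbp7 a GAS match lies 25 bases before the ISRE match, and another GAS match lies upstream of the excerpt. Gbp3 has 2 overlapping ISRE matches in this window and none in its other annotated promoter.
Gbp2: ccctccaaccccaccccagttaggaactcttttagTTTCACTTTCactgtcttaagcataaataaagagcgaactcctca
Gbp3: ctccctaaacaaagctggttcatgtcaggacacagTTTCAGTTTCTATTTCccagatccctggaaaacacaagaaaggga
Gbp7: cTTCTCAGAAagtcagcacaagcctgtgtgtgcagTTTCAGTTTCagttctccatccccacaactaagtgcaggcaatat

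Levels are given as log2 normalized intensity of the brightest probe of each gene, and each change as the difference of 2 group means on this scale, with its standard error. A call required both an adjusted p from limma below 0.05 and group medians more than 1.5 times apart. Shares of all probes refer to calls. For listed genes without overlap between IL1B and PBS arrays no such share was computed, and nothing is read from their counts. The probes used lie, in the mm9 coordinates of the array annotation, on chromosome 11 for the listed IRG genes besides Iigp1 (Tgtp2 at chr11:48871837-48871896, minus strand, and Igtp at chr11:58020927-58020986, plus strand), on chromosome 3 for Gbp2 (chr3:142300719-142300778, plus strand), Gbp3 and Gbp7 and on chromosome 5 for Gbp6 (chr5:105700056-105700115, minus strand). The Tgtp1 and Tgtp2 probes each list the transcripts of both genes, so that these near-identical genes cannot be told apart here, and 1 of the 2 Gbp6 probes also lists Gbp10.

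Of the 48 arrays, the one labelled CD11B+ P10 PBS replicate 6 stood apart from its group before any comparison. Its Tgtp2 level was 11.16, against 6.37 to 7.43 on the other 5 arrays, and its mean over 8 neutrophil and monocyte markers was 11.645, against 9.509 to 9.869. The main counts in CD11B+ P10 cells are given with and without it, for the lists outside the 10 genes by a choice made after the data were seen. Between 54.1% and 66.4% of the spots of an array were well above background, and no 2 arrays were identical. The fractions matched their labels in part. Olig1, a transcription factor of the oligodendrocyte lineage, averaged 16.11 ± 0.12 (SD, n = 6) in O4+ P5 PBS cells and 11.38 ± 0.44 in CD11B+ P5 PBS cells. The microglial receptor gene Cx3cr1 was at 15.27 ± 0.20 in the former and at 17.79 ± 0.08 in the latter, so that microglial transcripts were well measured in the O4+ fraction. Itgam, which encodes CD11B itself, went against the labels with its brightest probe, at 15.84 ± 0.10 in O4+ and 13.84 ± 0.09 in CD11B+ P5 PBS cells, while its other 2 probes were higher in CD11B+ cells, at 11.19 against 7.57 and 7.52 against 4.62. In such bulk samples, fewer cells of a type and less RNA per cell cannot be told apart.

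In O4+ cells at P5 all 10 listed genes were higher with IL1B. The median difference over the genes was 2.13 on the log2 scale, with an SD of 0.49 over the 6 IL1B arrays, while the median over all probes was -0.04. All 10 were called higher, beside 3.49% of all probes called higher, a count from which nothing is read since the genes were chosen for it. They also had every IL1B array above every PBS array, for which no share of all probes was computed. Tgtp2, Gbp2 and Igtp differed most, and Gbp6 and Iigp1 least.

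Of the GKS effectors, Tgtp2 lay between 5.97 and 7.14 (median 6.87) on the PBS arrays and between 11.71 and 13.64 (median 12.27) on the IL1B arrays. The difference was 5.63 ± 0.32, the largest of the list, and the groups lay far apart. The probe named for Tgtp1 lay at 3.33 to 4.16 (median 3.57) with PBS and at 5.20 to 6.39 (median 5.38) with IL1B, a difference of 1.90 ± 0.22. It was well above background on 2 of 6 PBS arrays. Iigp1 lay between 7.36 and 7.93 (median 7.58) with PBS and between 8.36 and 10.05 (median 8.79) with IL1B, a difference of 1.43 ± 0.24.

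Among the GMS regulators, Igtp lay between 7.63 and 8.19 (median 8.06) on the PBS arrays and between 10.62 and 12.58 (median 11.10) on the IL1B arrays, a difference of 3.33 ± 0.29. Irgm2 went from 5.92 to 6.66 (median 6.31) to 8.09 to 9.63 (median 8.48), a difference of 2.35 ± 0.24. Irgm1 was the tightest gene at baseline, with PBS arrays between 8.95 and 9.01, and lay between 10.30 and 11.52 (median 10.61) with IL1B, a difference of 1.71 ± 0.17. On every one of these genes the IL1B array with the highest value was replicate 4, followed by replicate 6.

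Among the GBPs, Gbp2 lay between 6.29 and 6.99 (median 6.60) with PBS and between 10.13 and 12.59 (median 10.62) with IL1B, a difference of 4.34 ± 0.39. Gbp3 went from 8.13 to 8.69 (median 8.51) to 10.44 to 12.20 (median 10.73), a difference of 2.57 ± 0.27, and Gbp7 from 7.41 to 7.79 (median 7.55) to 8.95 to 10.25 (median 9.26), a difference of 1.84 ± 0.19. Gbp6 differed least, from 7.54 to 8.48 (median 7.79) to 8.65 to 10.19 (median 9.17), a difference of 1.39 ± 0.26. The spread among the IL1B arrays was wider than among the PBS arrays for each of the 4 GBPs.

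**Figure D1:**
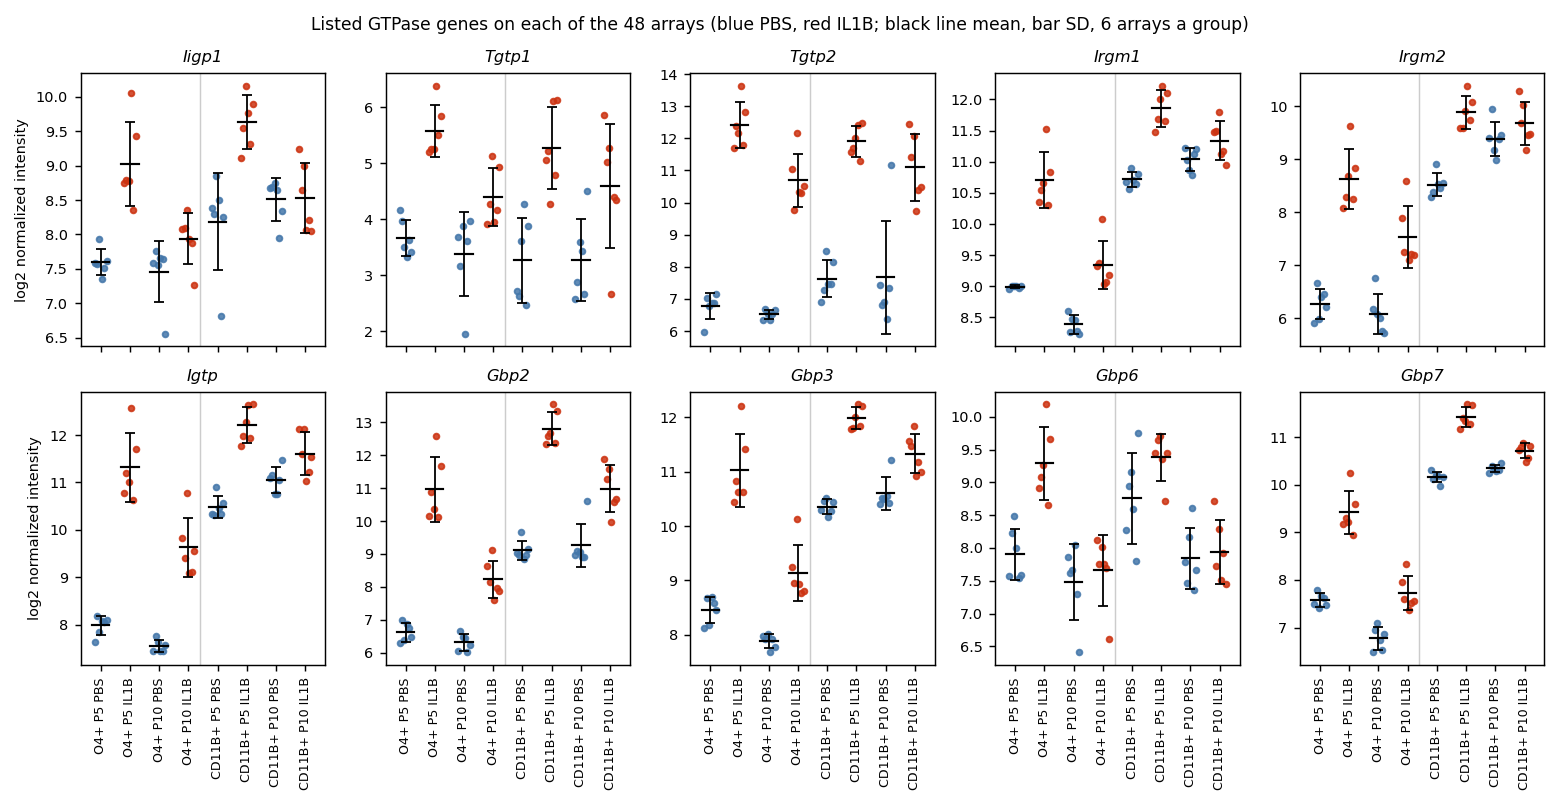
Level of each listed gene on each of the 48 arrays, as log2 normalized intensity (vertical axis, a scale of its own per gene) by group (horizontal axis), with blue points for PBS, red points for IL1B, black lines for group means and bars for the SD of 6 arrays. In O4+ P5 cells the red points lie above all blue points for the 10 genes, and in CD11B+ P10 cells 1 blue point of Tgtp2 (11.16) lies among the red ones.

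At P10 the listed genes were still higher with IL1B in O4+ cells, by smaller amounts. The median difference was 1.14 (SD 0.44 over 6 IL1B arrays), beside -0.02 over all probes. Called higher were 7 of the 10, beside 2.61% of all probes called higher. These 7 had no overlap between the groups. Tgtp2 lay between 6.35 and 6.69 (median 6.53) with PBS and between 9.78 and 12.18 (median 10.43) with IL1B, a difference of 4.17 ± 0.33. Igtp lay between 7.44 and 7.76 (median 7.51) with PBS and between 9.09 and 10.78 (median 9.48) with IL1B, and Gbp2 between 6.01 and 6.67 (median 6.34) and between 7.60 and 9.13 (median 8.05). Their differences were 2.08 ± 0.25 and 1.91 ± 0.24.

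Irgm2 differed by 1.45 ± 0.27, Gbp3 by 1.26 ± 0.20, Irgm1 by 0.95 ± 0.16 and Gbp7 by 0.95 ± 0.17 in these cells, each with all IL1B arrays above all PBS arrays. The other 3 genes overlapped between the groups. Iigp1 lay between 6.56 and 7.76 with PBS and between 7.27 and 8.36 with IL1B (0.48 ± 0.22), and Gbp6 between 6.41 and 8.04 and between 6.61 and 8.12 (0.17 ± 0.31). The Tgtp1 probe was well above background on none of the PBS arrays and on 5 of the IL1B arrays, and was not called. Its measured means were 3.38 and 4.40, with the IL1B mean at least 1.44-fold above the PBS mean, a bound without an error. Such a bound sets the bright group against the lowest signal that was well above background. IL1B replicate 3 had the highest value for 9 of the 10 genes, all but Gbp6.

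CD11B+ microglia at P5 had 9 of these genes higher with IL1B. The median difference was 1.54 (SD 0.27 over 6 IL1B arrays), beside -0.02 over all probes. Called higher were 9 of 10 genes, beside 3.98% of all probes called higher. The same 9 had no overlap between the groups. Tgtp2 lay between 6.90 and 8.48 (median 7.47) with PBS and between 11.28 and 12.47 (median 11.85) with IL1B, a difference of 4.27 ± 0.29. Gbp2 lay between 8.85 and 9.66 (median 9.01) with PBS and between 12.34 and 13.55 (median 12.62) with IL1B, a difference of 3.70 ± 0.23. These were the largest differences in microglia too.

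The regulators differed by less than Tgtp2 and Gbp2 in these cells. Igtp lay between 10.31 and 10.91 (median 10.40) with PBS and between 11.76 and 12.65 (median 12.13) with IL1B, a difference of 1.72 ± 0.18. Irgm2 and Irgm1 differed by 1.36 ± 0.15 and 1.14 ± 0.13. Gbp3 (1.62 ± 0.10) and Gbp7 (1.27 ± 0.10) had the smallest errors of the list here. Tgtp1 differed by 2.01 ± 0.41 and Iigp1 by 1.45 ± 0.31. The brighter Gbp6 probe was not called, with PBS arrays between 7.80 and 9.75 and IL1B arrays between 8.71 and 9.71 (0.63 ± 0.30), while the dimmer one differed by 3.67 ± 0.33 with no overlap.

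In CD11B+ cells at P10 the differences were smaller and depended on the probe, with a median of 1.02 when all probes of a gene were averaged. With 1 probe a gene, the median difference was 0.47 (SD 0.37 over 6 IL1B arrays), beside 0.00 over all probes. Tgtp2, Gbp2 and Gbp3 were called higher, 3 of 10 beside 1.02% of all probes, and Gbp7 alone had no overlap between the groups. Tgtp2 lay between 6.37 and 11.16 (median 7.12) with PBS and between 9.75 and 12.44 (median 10.95) with IL1B, a difference of 3.43 ± 0.79. Gbp2 lay between 8.92 and 10.60 (median 9.01) and between 9.96 and 11.88 (median 10.96), a difference of 1.73 ± 0.38. Gbp3 differed by 0.73 ± 0.18. For all 3 genes the highest PBS array was replicate 6.

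Without that array, the same 3 genes were called, Tgtp2 at 4.12 ± 0.48, Gbp2 at 1.99 ± 0.31 and Gbp3 at 0.85 ± 0.16, beside 2.46% of all probes, and 4 of 10 genes, these 3 and Gbp7, had no overlap. Gbp7 was shifted little but evenly, from 10.25 to 10.46 (median 10.33) with PBS to 10.48 to 10.88 (median 10.77) with IL1B, a difference of 0.37 ± 0.07. Igtp (0.56 ± 0.21), Irgm2 (0.30 ± 0.20) and Irgm1 (0.29 ± 0.14) were not called, and Tgtp1 at 1.31 ± 0.51 was above background on 1 of the 6 PBS arrays. The brighter probes of Iigp1 (0.03 ± 0.23) and Gbp6 (0.09 ± 0.26) differed by less than their errors, and the dimmer ones by 4.2 ± 0.82 and 2.59 ± 0.48. The 3 calls rest on few arrays, as leaving out single arrays gave between 0 and 4 calls. None of the 10 genes was called with the slide as a block, a fit in which 2 probes were called in all.

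**Figure D2:**
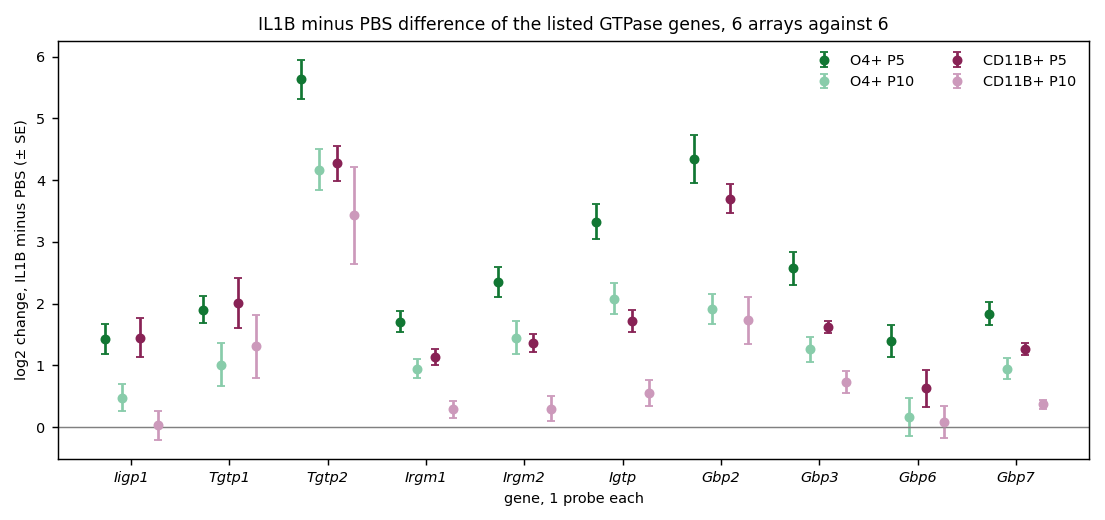
Difference between IL1B and PBS group means (vertical axis, log2 units, bars ± SE, 6 arrays against 6) for each listed gene (horizontal axis) in the 4 comparisons, O4+ in green and CD11B+ in purple, P10 in the paler shade. Tgtp2 is highest in each comparison (5.63, 4.17, 4.27 and 3.43), and the CD11B+ P10 points of Iigp1 (0.03) and Gbp6 (0.09) lie near 0.

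Arrays were hybridized on 9 slides, and the IL1B differences were read again within each slide that held both groups. In O4+ P5 cells the median over the listed genes was 1.80 on slide 1 (4 PBS and 1 IL1B arrays) and 1.86 on slide 4 (2 and 1). In O4+ P10 cells it was 1.11 on slide 5 (5 and 2) and 1.00 on slide 9 (1 and 1). In CD11B+ P5 cells it was 1.48 on slide 4 (1 and 4), where 9 of 10 genes were above 0 and Gbp6 was at -0.46. In CD11B+ P10 cells it was 0.50 on slide 7 (2 and 5), which holds PBS replicate 6. With the slide as a block, 8, 7, 7 and 0 of 10 genes were called in these 4 comparisons. Of all 55681 probes, 1878, 1661, 2147 and 2 were then called in either direction, so the last fit called almost nothing.

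The measured difference between IL1B and PBS was smaller at P10 than at P5 for all 10 genes in both cell types. Injections ended at P5 in all groups, so that age and time since the last injection cannot be told apart here. In O4+ cells the difference of the responses, P10 minus P5, ran from -2.43 ± 0.47 for Gbp2 to -0.76 ± 0.24 for Irgm1, and 6 genes were past limma's threshold for the interaction term, Gbp2, Tgtp2 (-1.46 ± 0.47), Gbp3 (-1.31 ± 0.35), Igtp (-1.25 ± 0.39), Gbp7 (-0.89 ± 0.26) and Irgm1, beside 5.48% of all probes called lower. In CD11B+ cells it ran from -1.98 ± 0.45 for Gbp2 to -0.54 ± 0.41 for Gbp6, and 7 were past it with or without PBS replicate 6, namely Gbp2, Iigp1 (-1.42 ± 0.40), Igtp (-1.16 ± 0.28), Irgm2 (-1.07 ± 0.26), Gbp3 (-0.90 ± 0.21), Gbp7 (-0.90 ± 0.12) and Irgm1 (-0.85 ± 0.19), beside 6.15% of all probes. The dimmer Gbp6 probe, not used in these values, was past the threshold in O4+ cells, at -2.59. With the slide as a block, 0 and 1 genes were past it, where 4091 and 2465 of all probes were past it in either direction.

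Between the cell types, with 1 probe a gene, the measured differences of the responses, O4+ minus CD11B+, were widest for Igtp. At P5 those past the threshold were Igtp (1.61 ± 0.35), Irgm2 (0.99 ± 0.29) and Gbp3 (0.95 ± 0.30), 3 of 10 beside 6.93% of all probes. At P10 they were Igtp (1.52 ± 0.33) and Irgm2 (1.16 ± 0.34), 2 of 10 beside 3.92%, and Igtp alone (1.43 ± 0.34) without CD11B+ P10 PBS replicate 6. Tgtp2 (1.36 ± 0.45 at P5) and Gbp2 (0.64 ± 0.47) were not past it, and for Iigp1 and Tgtp1 the difference was smaller than its error at P5, at -0.02 ± 0.41 and -0.11 ± 0.47. The dimmer Gbp6 probe, not used in these values, was past the threshold at P10 in the other direction, at -2.29. With the slide as a block none of the 10 was past it at either age, where 2254 and 2327 of all probes were, in either direction. Both fractions came from the same animals, which the main fits do not take into account. With the replicate number as a block, 5 of 10 at P5 and 4 at P10 were past it, where 5956 and 6187 of all probes were, in either direction.

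The level reached, as opposed to the response, was highest in CD11B+ P5 IL1B cells for 8 of the 10 genes and in O4+ P5 IL1B cells for Tgtp1 and Tgtp2. The lowest group was O4+ P10 PBS for 9 genes and CD11B+ P5 PBS for Tgtp1. Gbp2 covered the widest span from lowest to highest group mean, 6.50, followed by Tgtp2 with 5.89, while Gbp6 covered 1.90. Most neighbours in these orders were not separate, since the ranges of the arrays overlapped for 56 of the 70 neighbouring pairs of groups. Among the 14 that were separate, Gbp2 was at 12.34 or more in CD11B+ P5 IL1B and at 11.88 or less in CD11B+ P10 IL1B cells, and Irgm1 was separate at the last 3 steps, from O4+ P5 IL1B through O4+ P10 IL1B and O4+ P5 PBS to O4+ P10 PBS.

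PBS cells give comparisons that did not use the IL1B arrays, though the PBS arrays entered the responses known when the genes were listed. Between cell types, 8 of 10 listed genes were lower in O4+ than in CD11B+ cells at P5 and 7 of 10 at P10, where 21.8% and 20.2% of all probes were called lower. The fits treat the fractions, which came from the same animals, as separate samples. The median over the list was -1.82 at P5 and -2.69 at P10. Igtp was lower by 2.50 ± 0.12 at P5 and by 3.5 ± 0.12 at P10 (limma, adjusted p = 3.39e-09 and 1.41e-10). Gbp7 was at -2.58 ± 0.07 and -3.57 ± 0.10 (adjusted p = 4.78e-11 and 3.47e-11), Irgm2 at -2.25 ± 0.14 and -3.30 ± 0.19 (adjusted p = 3.20e-08 and 1.69e-08). Gbp2, Gbp3 and Irgm1 differed by between -1.72 and -2.95, all called at both ages.

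Of the effectors, Iigp1 was at -0.59 ± 0.28 at P5 (adjusted p = 0.106) and was called at P10, at -1.05 ± 0.21 (adjusted p = 0.000990). Tgtp2 was called at P5 (-0.85 ± 0.28, adjusted p = 0.0203) and not at P10 (-1.15 ± 0.68, adjusted p = 0.188), and without CD11B+ P10 PBS replicate 6 it was at -0.45 ± 0.18 (adjusted p = 0.0503). The Tgtp1 probe, well above background on 0 to 2 of 6 arrays in each of these groups, did not pass at either age (0.40 ± 0.32 and 0.11 ± 0.40), and Gbp6 passed at P5 only (-0.85 ± 0.31, adjusted p = 0.0333). Within the 1 slide that held both PBS cell types at P5 (2 O4+ arrays and 1 CD11B+ array) the median was -1.97. Within scan days 1 (4 and 1 arrays) and 2 (2 and 5) at P5 it was -1.70 and -1.89, with 7 and 9 of 10 genes below 0, and within scan day 3 at P10 (5 and 6) it was -2.66, with 10 of 10 below 0.

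Between P5 and P10 few of the listed genes passed the test in PBS cells. In O4+ cells 3 of 10 were lower at P10, beside 9.14% of all probes, namely Gbp7 (-0.80 ± 0.11, limma, adjusted p = 0.000151), Irgm1 (-0.60 ± 0.06, adjusted p = 2.12e-05) and Gbp3 (-0.57 ± 0.11, adjusted p = 0.00143). All 10 differences were below 0, with a median of -0.36. In CD11B+ cells 2 of 10 were higher at P10, beside 4.49% of all probes, namely Irgm2 (0.86 ± 0.15, adjusted p = 0.00188) and Igtp (0.56 ± 0.14, adjusted p = 0.0143). No slide and no scan day held PBS cells of both ages, so that age and batch cannot be told apart here. Nor can age and time since the last injection, given at P5. With slide or scan day as a random block the O4+ count stayed at 3 and the CD11B+ count was 1 and 0. Such a block cannot separate age from batch. With normexp background correction none of the 10 was called in O4+ cells. In CD11B+ cells 9 of 10 differences were above 0, with a median of 0.21, and Gbp6 was at -0.91 ± 0.32 (adjusted p = 0.0706). Whether the course differs between the cell types was not tested.

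The 2 probes of a gene did not always give like values. Of the 15 probes, 14, 9, 13 and 5 were called higher in O4+ P5, O4+ P10, CD11B+ P5 and CD11B+ P10 cells. The last count was also 5 without PBS replicate 6. Of all probes, 3.49%, 2.61%, 3.98% and 1.02% were called higher. The dimmer Iigp1 probe was well above background on no O4+ PBS array and on all O4+ IL1B arrays, at least 12.1-fold higher at P5 and at least 2.29-fold higher at P10. In CD11B+ cells it differed by 4.74 ± 0.70 at P5 and 4.2 ± 0.82 at P10, where the brighter Iigp1 probe gave 1.45 and 0.03, but at each age only 1 of 6 PBS arrays was well above background for it, so that the sizes are uncertain. Its levels in CD11B+ P10 cells were 1.61 to 6.29 with PBS and 5.48 to 8.23 with IL1B.

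The dimmer Gbp6 probe, which also lists Gbp10, differed by 3.67 ± 0.33 in CD11B+ P5 and 2.59 ± 0.48 in CD11B+ P10 cells, where the brighter Gbp6 probe gave 0.63 and 0.09. In O4+ cells it gave 2.90 ± 0.32 at P5 and 0.30 ± 0.27 at P10. It was past limma's interaction threshold for P10 minus P5 in O4+ cells (-2.59) and for O4+ minus CD11B+ at P10 (-2.29). The brighter Gbp6 probe was at -1.22 and 0.08 there and past the threshold in neither. The dimmer Tgtp2 probe was well above background on no PBS array of either cell type and stood at least 1.75-fold higher with IL1B in O4+ P5 cells, while the brighter Tgtp2 probe differed by 5.63 on the log2 scale there. Both Irgm1 probes gave like values (1.71 and 1.52 in O4+ P5 cells). The second Gbp7 probe was above background on no array. When all probes of a gene were averaged, 5 of 10 genes were called in CD11B+ P10 cells, with or without PBS replicate 6.

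**Figure D3:**
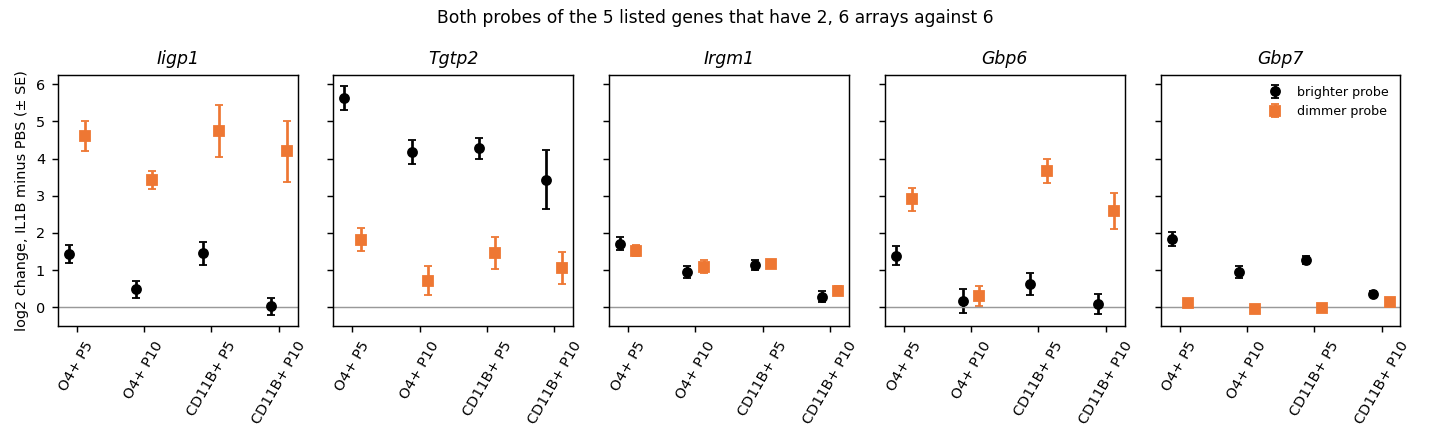
Difference between IL1B and PBS (vertical axis, log2 units, bars ± SE, 6 arrays against 6) by comparison (horizontal axis) for the 5 listed genes with 2 probes, with black circles for the brighter probe and orange squares for the dimmer one. The Irgm1 probes lie together, while those of Iigp1 are 0.03 and 4.2 in CD11B+ P10 cells.

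Other GTPase genes, from a list drawn up beside this one, moved in the same comparisons. Besides genes of the IRG and GBP families the list holds others, among them Gvin1, Mx1 and Mx2. Of 23 names 20 had a probe, and of the 3 without, RefSeq gives Gbp1 as an older name of Gbp2b and Mpa2l as one of Gbp6. Called higher were 11, 7, 11 and 4 of 20 in O4+ P5, O4+ P10, CD11B+ P5 and CD11B+ P10 cells beside 3.49%, 2.61%, 3.98% and 1.02% of all probes, and 0 were called lower. The last count was 8 without PBS replicate 6 and 0 without PBS replicate 2 or 3. It was 0 with the slide as a block, a fit in which 2 probes were called in all. Gbp4 passed in all 4, at 3.44 ± 0.39, 2.17 ± 0.32, 3.13 ± 0.26 and 2.42 ± 0.63 (limma, adjusted p = 0.000129, 0.00274, 8.75e-06 and 0.0482). Ifi47, an IRG effector, passed in 3, at 3.44 ± 0.29, 1.42 ± 0.18 and 2.05 ± 0.22 (adjusted p = 1.62e-05, 0.00156 and 4.73e-05), and was at 0.79 ± 0.28 in CD11B+ P10 cells (adjusted p = 0.113). Gm4951, the IRG-like gene Gm12250 and the giant GTPase gene Gvin1 also passed in these 3, together with Gbp9 (1.81 ± 0.24, 0.72 ± 0.14 and 0.82 ± 0.14), with Gm4951 at 3.19 ± 0.34 in O4+ P5 cells, Gm12250 at 2.35 ± 0.25 in CD11B+ P5 cells and Gvin1 at 1.95 ± 0.22 in O4+ P5 cells.

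Gbp1 and Gbp11 were among the GBPs with the largest differences in microglia. Gbp1 was at 4.52 ± 0.47 at P5 and 3.87 ± 0.75 at P10 (adjusted p = 3.79e-05 and 0.0204), and Gbp11 at 2.87 ± 0.28 and 2.30 ± 0.50 (adjusted p = 2.85e-05 and 0.0279). Gbp8 was at 2.62 ± 0.18 and 2.90 ± 0.60 there (adjusted p = 1.64e-06 and 0.0250). In O4+ P5 cells the Gbp1 probe was above background on 4 IL1B arrays and on no PBS array, at least 1.38-fold higher. Mx1, an antiviral GTPase that answers to type I interferon, passed at P5 in both cell types (1.61 ± 0.20 and 1.12 ± 0.17, adjusted p = 0.000221 and 0.000662). Gbp5, Mx2, Irgq, Gm5431 and Irgc1 were called in none of the 4 comparisons. As a median the 20 genes differed by 1.63, 0.51, 0.87 and 0.52.

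Upstream of these genes, interferon gamma (Ifng) itself was measured mainly in the CD11B+ fraction. It lay between 2.88 and 4.74 (median 3.76) with PBS and between 7.36 and 8.67 (median 7.76) with IL1B in CD11B+ P5 cells, a difference of 4.05 ± 0.36 (limma, adjusted p = 1.38e-05). In CD11B+ P10 cells it differed by 4.10 ± 0.87 (adjusted p = 0.0263), from a median of 2.23 to 6.98, and the highest PBS array stood at 7.35. In O4+ P5 cells Ifng was well above background on 2 of 6 IL1B arrays (1.83 to 4.64) and on no PBS array (1.53 to 1.96), and no fold is given although it passed the test (adjusted p = 0.0494). In O4+ P10 cells it was well above background on no array. Ifnb1 was lower by 1.41 ± 0.26 in CD11B+ P5 cells (limma, adjusted p = 0.00244) and higher by 0.56 ± 0.10 at P10 (adjusted p = 0.0185). Ifna1, Ifna2 and Ifna4 were called in no IL1B comparison. The 2 chains of the interferon gamma receptor, Ifngr1 (0.93 ± 0.10, adjusted p = 8.49e-05) and Ifngr2 (0.83 ± 0.06, adjusted p = 3.79e-06), were called higher in O4+ P5 cells. In CD11B+ P5 cells they were at 0.42 ± 0.07 and 0.27 ± 0.04, under the fold threshold, and the differences between the cell types were 0.51 ± 0.12 and 0.56 ± 0.07 (limma's interaction term, adjusted p = 0.00912 and 8.80e-06). Of the type I receptor chains, Ifnar1 and Ifnar2 were called in no IL1B comparison.

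The signalling kinases Jak1, Jak2 and Tyk2 were called in no IL1B comparison, and Stat2 (0.80 ± 0.11, limma, adjusted p = 0.000402) passed in CD11B+ P5 cells. Of the transcription regulators, Nlrc5, the activator of MHC class I genes, was higher in all 4 comparisons, at 3.29 ± 0.33, 3.02 ± 0.26, 3.55 ± 0.26 and 2.97 ± 0.62 (adjusted p = 5.18e-05, 0.000594, 3.33e-06 and 0.0252), and so was Batf2 (3.03, 1.03, 2.16 and 1.26). Irf1, which binds the ISRE, was higher by 0.87 ± 0.13 at both ages in O4+ cells (adjusted p = 0.000947 and 0.00299) and by 0.66 ± 0.16 in CD11B+ P10 cells (adjusted p = 0.0364). Irf8 was higher in O4+ cells (1.37 ± 0.13 at P5 and 0.81 ± 0.17 at P10, adjusted p = 3.57e-05 and 0.0128) and not called in CD11B+ cells. Irf7 (1.40 ± 0.18, limma, adjusted p = 0.000190) and Irf9 (0.65 ± 0.08, adjusted p = 9.87e-05) passed in CD11B+ P5 cells. Irf2 and Ciita passed in no IL1B comparison. The feedback inhibitor Socs3 rose at P5 in both cell types, by 2.31 ± 0.13 and 1.56 ± 0.08 (adjusted p = 1.27e-06 and 3.06e-07).

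Over the 43 interferon pathway genes together, 22, 15, 20 and 10 were called higher in O4+ P5, O4+ P10, CD11B+ P5 and CD11B+ P10 cells, and Ifnb1 in CD11B+ P5 cells was the 1 call in the other direction. The last count was 15 without PBS replicate 6 and 3 without PBS replicate 2 or 3. It was 0 with the slide as a block, which ends every call of this list in CD11B+ P10 cells. In that fit 2 probes were called in all. The shares of all probes called higher were 3.49%, 2.61%, 3.98% and 1.02%. Of the 10 targets of interferon gamma, 9, 7, 6 and 5 were higher, the last also without PBS replicate 6. Psmb8 and Psmb9 of the immunoproteasome, the peptide transporter Tap1 and Cd274, which encodes PD-L1, passed in all 4, with Psmb9 at 1.86 ± 0.19, 1.98 ± 0.17, 1.00 ± 0.11 and 1.01 ± 0.20 (adjusted p = 7.26e-05, 0.000602, 6.57e-05 and 0.0209). B2m and Cxcl10 passed in O4+ cells at both ages, Cxcl10 at 2.10 ± 0.27 and 1.51 ± 0.27 (adjusted p = 0.000331 and 0.00631), and in CD11B+ cells were called at neither. Of 7 targets of type I interferon, 5, 4, 4 and 0 (4 without PBS replicate 6) were higher, among them Ifit1 at 1.51 ± 0.28 in O4+ P5 cells (adjusted p = 0.00345) and at 1.62 ± 0.26 in CD11B+ P5 cells (adjusted p = 0.000841).

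**Figure D4:**
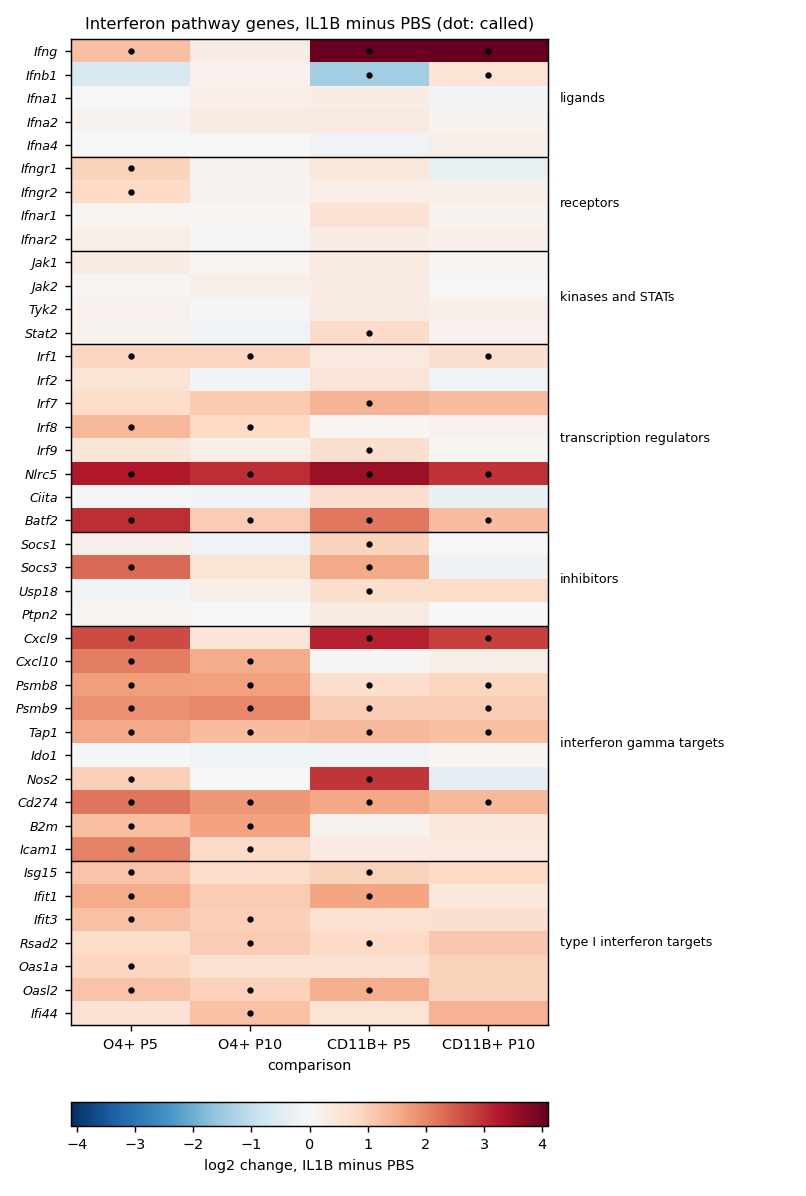
Difference between IL1B and PBS (colour, log2 units, red higher and blue lower) of 42 of the interferon pathway genes (rows, grouped by role) in the 4 comparisons (columns), with a dot where the gene was called. Nlrc5 and Batf2 are called in all 4 columns, and Ifng is darkest in the CD11B+ columns (4.05 and 4.10), the end of the colour scale.

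By Pearson correlation over the 48 arrays, each taken relative to the mean of its cell type, the genes outside the list whose pattern was most like the mean z-score of the listed genes were Ifi47 (r = 0.98), AW112010 (0.97), Ifih1 (0.95), Fcgr4 (0.95) and Gvin1 (0.94), out of 17350 genes. Over the 24 O4+ arrays they were Ifi47 (0.99), Serpina3g (0.98), Gvin1 (0.97), AW112010 (0.97) and Gbp4 (0.97), and over the 24 CD11B+ arrays Gm12250 (0.98), Ifih1 (0.97), AW112010 (0.97), Ifi47 (0.96) and Il18bp (0.96). These values describe arrays that share treatment and age, and no p is given. Within the list, each gene followed the mean of the other 9 over the 48 arrays at between 0.67 (Gbp6) and 0.98 (Gbp3), and Gbp6 was loosest over the CD11B+ arrays, at 0.45.

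Markers of other cells moved with IL1B in the same samples. In O4+ P5 cells the mean of 15 microglial markers was 13.32 to 13.90 with PBS and 14.49 to 14.90 with IL1B, higher by 0.99 (exact permutation test, two-sided, adjusted p = 0.00576 over 32 tests, the smallest raw p being 0.00216), with 10 of 15 markers called higher. At P10 it was higher by 0.43 (12.51 to 13.18 against 12.88 to 13.52, exact permutation test, adjusted p = 0.0346), with 7 of 15 called higher. All 15 markers were above background in the O4+ fraction. In CD11B+ cells the same mean was lower by 0.15 at P5 and by 0.10 at P10 (exact permutation tests, adjusted p = 0.00990 and 0.0256). The 15 markers include Itgam by its brightest probe, which was higher in O4+ than in CD11B+ PBS cells. In O4+ P5 cells that probe was at 15.84 with PBS and 15.61 with IL1B. The other Itgam probes were higher with IL1B there, at 9.40 against 7.57 and 5.72 against 4.62.

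The mean of 8 neutrophil and monocyte markers was higher by 3.22 in O4+ P5 cells (4.13 to 5.07 against 6.17 to 9.18), by 1.59 in O4+ P10 cells (3.49 to 4.78 against 5.14 to 6.25) and by 3.07 in CD11B+ P5 cells (9.35 to 10.46 against 12.49 to 13.30), each with an exact permutation test at adjusted p = 0.00576. In CD11B+ P10 cells it was higher by 0.95 (9.51 to 11.64 against 10.46 to 11.37, exact permutation test, adjusted p = 0.0462). In O4+ PBS cells 2 of the 8 markers at P5 and 3 at P10 were above background on no array, among them Ngp, a granule gene of neutrophils, which was above background on all O4+ P5 IL1B arrays. The mean of 10 T and NK cell markers was higher by 1.29 in CD11B+ P5 cells (6.17 to 6.68 against 7.09 to 8.12), by 1.15 in CD11B+ P10 cells (5.68 to 7.5 against 7.05 to 7.57) and by 0.45 in O4+ P5 cells (4.67 to 4.85 against 4.91 to 5.50), by exact permutation tests at adjusted p = 0.00576, 0.0245 and 0.00576. In O4+ P10 cells that mean differed by 0.19 (exact permutation test, adjusted p = 0.147). At each age, 5 of the 10 T and NK cell markers were above background on no O4+ PBS array and 4 on no O4+ IL1B array. In CD11B+ cells these numbers were 3 and 1 at P5 and 2 and 1 at P10. The means of this list thus hold background signal.

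The remaining lists moved as follows. The 3 markers of the oligodendrocyte lineage were lower by 0.20 in O4+ P5 cells and higher by 0.20 in O4+ P10 cells (exact permutation tests, adjusted p = 0.00576 and 0.0256), and lower by 0.68 and 0.26 in CD11B+ P5 and P10 cells (exact permutation tests, adjusted p = 0.00576 and 0.0245). The 6 myelin genes were lower at P10 with IL1B, by 0.41 in O4+ and 1.13 in CD11B+ cells (exact permutation tests, adjusted p = 0.00576 for both), and at P5 were at -0.40 and -0.04 (exact permutation tests, adjusted p = 0.0787 and 0.703). The 6 endothelial markers were lower by 0.82, 0.84 and 0.24 in O4+ P5, CD11B+ P5 and CD11B+ P10 cells (exact permutation tests, adjusted p = 0.00990, 0.00576 and 0.0185) and at -0.02 in O4+ P10 cells. The 6 astrocyte markers were higher by 0.55 in O4+ P10 cells (exact permutation test, adjusted p = 0.00576) and did not pass elsewhere, and the 5 neuronal markers passed in no comparison (exact permutation tests, adjusted p between 0.174 and 0.825). The part of these cells in the levels of the listed genes was not tested.

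**Figure D5:**
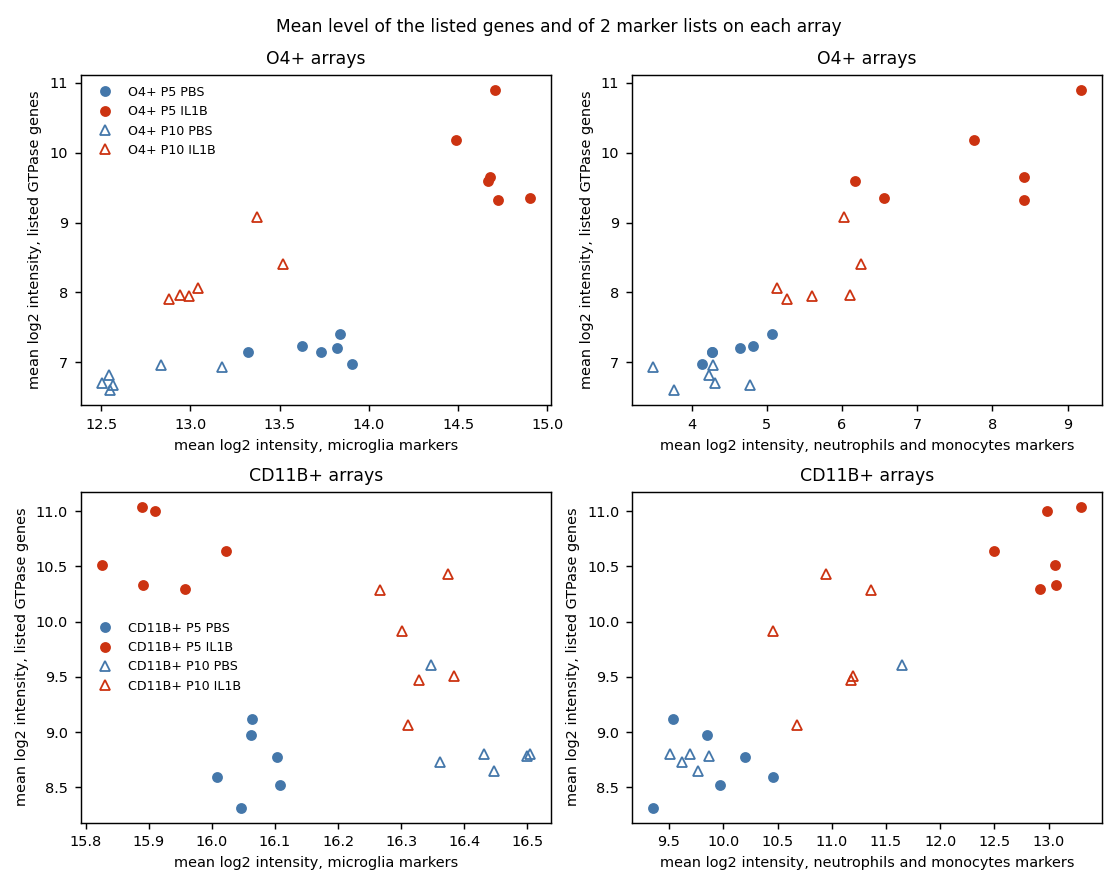
Mean log2 normalized intensity of the 10 listed genes (vertical axis) against that of 15 microglial markers (left) and of 8 neutrophil and monocyte markers (right) on each of the 24 O4+ arrays (top) and 24 CD11B+ arrays (bottom), with blue for PBS, red for IL1B, filled circles for P5 and open triangles for P10. The array labelled CD11B+ P10 PBS replicate 6 is the blue triangle at 11.645 on the horizontal axis of the lower right panel.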

How the data were processed

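RNA of 48 samples was hybridized to 1-colour Agilent arrays, and per the file headers the authors extracted spot intensities with Agilent Feature Extraction 10.7.3.1, with mm9 annotation. The deposited intensity values used were the background-subtracted processed signals. The authors also deposited a matrix of ratios, which equal each processed signal over its array median and served as an alternative. Here 278 non-uniform spot readings and all control spots were left out, log2 intensities were quantile normalized over all arrays and averaged over the spots of each of 55681 probes, and the probe with the highest mean signal stood for a gene. Groups of 6 were compared with limma 3.58.1 (R 4.3.3), on 12 arrays or, for differences of responses, 24, after a test on simulated data. p-values were adjusted by Benjamini-Hochberg over all probes. A call needed an adjusted p under 0.05 and a ratio of medians over 1.5, except that interaction terms had no fold threshold. A probe well above background on no array of its dimmer group was given a bound only. Marker means were compared by exact permutation over 924 splits. Python 3.11.15, pandas 2.3.3 and matplotlib 3.10.9 drew figures and searched promoters. The number of arrays limits the precision, and since brains were pooled by the authors and sources per array are not labelled, p-values measure the spread between these samples. Members and gene lists were chosen with earlier results of these data known. The text names all listed genes and, of the other lists, called members (at most the 8 of largest change per comparison, not all of them printed); interferon ligands, receptors, signalling genes and regulators could be named whether called or not. Values of 1 interferon pathway gene are not reported here, though the counts over the list include it. Alternatives covered normalization, background correction, dim probes, probe choice, fold rule, test, slide, scan date, replicate number and left-out arrays.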

Additional observations from a re-analysis of the deposited data

Results flagged for a closer look

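Of 80 combinations of a listed gene and a group, 10 held an array whose gap to its nearest neighbour was a larger part of the range of the group than Dixon's critical value for 6 arrays, where about 4 are expected by chance. The array labelled CD11B+ P10 PBS replicate 6 was the highest of its group for Tgtp2 (ratio 0.780), Gbp2 (0.894) and Gbp3 (0.824). O4+ P10 IL1B replicate 3 was the highest for Irgm1 (0.676) and Gbp3 (0.650). The other 5 were single cases, with Iigp1 in O4+ P10 PBS replicate 6 (0.833) and CD11B+ P5 PBS replicate 5 (0.715), Tgtp2 in O4+ P5 PBS replicate 1 (0.696), and Gbp6 in O4+ P10 IL1B replicate 6 (0.726) and CD11B+ P5 IL1B replicate 5 (0.637).

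Differences between responses to IL1B were past limma's threshold for the interaction term for 18 pairs of a gene and a comparison, a description since the genes were chosen for these responses. With the slide as a block, 1 such pair was left in all. Between ages in O4+ cells, P10 minus P5, these were Tgtp2 (-1.46), Irgm1 (-0.76), Igtp (-1.25), Gbp2 (-2.43), Gbp3 (-1.31) and Gbp7 (-0.89). In CD11B+ cells they were Iigp1 (-1.42), Irgm1 (-0.85), Irgm2 (-1.07), Igtp (-1.16), Gbp2 (-1.98), Gbp3 (-0.90) and Gbp7 (-0.90). Between cell types, O4+ minus CD11B+, they were Irgm2 (0.99), Igtp (1.61) and Gbp3 (0.95) at P5 and Irgm2 (1.16) and Igtp (1.52) at P10. In the values between ages, age and time since the last injection cannot be told apart.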

How the results depend on the processing

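Of 838 recomputed IL1B differences of single listed genes (40 pairs of gene and comparison), 813 moved by less than the spread between arrays and 0 called values changed sign, while 7 uncalled values, of Gbp6 and Iigp1, fell below 0. The counts and medians that moved were these. With 75th percentile scaling, the responses of 3 listed genes differed between ages in O4+ cells and of 1 between cell types at P5. With normexp, 7 other GTPase genes were called in O4+ P5 and 7 in CD11B+ P10 cells, 8 interferon genes in O4+ P10 cells, the CD11B+ P5 median was 1.24, and 1 response differed between cell types at each age. In PBS O4+ cells none of the 10 differed between ages (0 called by limma). With the deposited matrix, responses differed between ages for 2 genes in O4+ and 4 in CD11B+ cells, and between cell types for 1 at P5. With the slide as a block, 7 other GTPase genes were called in O4+ P5 and 7 in CD11B+ P5 cells, 11 interferon genes in CD11B+ P5 cells, and in CD11B+ P10 cells 0 listed, 0 other and 0 interferon genes, where 2 probes were called in all. The PBS age count in CD11B+ cells was then 1, and the counts of differing responses were 0 and 1 between ages and 0 and 0 between cell types. With the scan date as a block, these were 0 for PBS age in CD11B+ cells and 1 for cell types at P5. Without a fold threshold, 33 interferon genes were called in CD11B+ P5 cells and 4 listed genes for PBS age in CD11B+ cells, and with the fold from group means 1. With dim probes left out, 7 other GTPase genes were called in CD11B+ P10 cells and 4 responses differed between cell types at P10, and with all 8 groups in one fit 8 other GTPase genes were called in CD11B+ P10 cells. With all probes of a gene averaged, the CD11B+ P5 median was 1.86, the CD11B+ P10 median 1.02 with 5 genes called, and 1 gene differed with age in O4+ PBS cells. The causes were not tested. Where limma called 0 genes, the counts at an unadjusted p under 0.05 were, with the slide as a block, 2 listed, 4 other and 10 interferon genes in CD11B+ P10 cells, 2 responses between ages in O4+ cells, and 0 and 4 between cell types at P5 and P10. They were 5 listed and 12 other genes with the replicate block, 4 with the scan date as a block, and 5 with normexp. Correlations of same-numbered arrays were not over 0.1 for all 6 numbers in any comparison, and the labels do not say that a number marks an animal, so the numbers were not taken to pair samples. Between PBS O4+ and CD11B+ cells, which came from the same animals, 5 of 6 were over 0.1 at each age, and 4 at P5 and 5 at P10 correlated best with their own number. With the replicate block, 0 listed, 0 other and 3 interferon genes were called in CD11B+ P10 cells, 1 listed gene for PBS age in CD11B+ cells, and 5 and 4 responses differed between cell types at P5 and P10. Leaving out single arrays gave, in O4+ P5, O4+ P10, CD11B+ P5 and CD11B+ P10 cells, 10 to 10, 7 to 7, 9 to 10 and 0 to 4 listed genes, 11 to 12, 6 to 7, 11 to 13 and 0 to 8 other GTPase genes, 20 to 22, 14 to 16, 17 to 22 and 3 to 15 interferon genes, and medians of 1.95 to 2.22, 0.97 to 1.2, 1.48 to 1.62 and 0.40 to 0.55. In CD11B+ P10 cells 0 listed genes were called without any 1 of PBS replicates 1 to 4 or IL1B replicates 2, 3 and 5, 4 without IL1B replicate 4, and 8 other and 15 interferon genes without PBS replicate 6, against 0 and 3 without PBS replicate 2 or 3. PBS age counts were 2 to 4 and 2 to 3, cell type counts 7 to 9 and 7 to 7, and differing responses 3 to 8 and 7 to 7 between ages and 1 to 5 and 1 to 3 between cell types.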

Other observations

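GBPs can engage the products of inflammasome genes. Of 6 such genes, 6, 6, 5 and 5 had IL1B differences above 0 in O4+ P5, O4+ P10, CD11B+ P5 and CD11B+ P10 cells. Called higher were 6, 2, 2 and 1 of 6, beside 3.49%, 2.61%, 3.98% and 1.02% of all probes. The last count was also 1 without PBS replicate 6. Casp4, the mouse caspase-11 that senses bacterial lipopolysaccharide, passed in all 4, at 2.61 ± 0.17, 1.31 ± 0.14, 1.19 ± 0.09 and 0.93 ± 0.15 (limma, adjusted p = 3.63e-06, 0.000856, 3.21e-06 and 0.0151). Casp1 passed in 3, at 1.65 ± 0.16, 0.91 ± 0.16 and 0.61 ± 0.06 (adjusted p = 5.45e-05, 0.00608 and 4.34e-05). Gsdmd (1.46 ± 0.11), Nlrp3 (1.63 ± 0.16), Aim2 (1.2 ± 0.13) and Pycard (0.79 ± 0.17) passed in O4+ P5 cells. Microglial markers were higher in those same O4+ P5 samples, and their part in these values was not tested.

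Genes of ATG8 conjugation, which guides IRG proteins and GBPs to membranes, were called in none of the 4 IL1B comparisons (0 of 10 by limma), with 5, 5, 3 and 3 of 10 at an unadjusted p under 0.05 and medians of -0.07, -0.06, 0.10 and 0.01.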
